A study of Rattus norvegicus with 6 samples.

Results

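The response to low oxygen was examined in rat liver through 10 genes: the oxygen-sensing prolyl hydroxylases Egln1 and Egln3, and Adm, Vegfa, Slc2a1, Bnip3, Ndrg1, Pdk1, Ankrd37 and Kdm3a, which the hypoxia-inducible factors (HIF) are known to induce. The genes were chosen by name, with earlier results of these data known. Every non-control array probe whose RefSeq accession matched one of them was taken. This gave 17 of the 61657 non-control probes and 9 of the 15284 genes with a matched probe. No probe was matched to Egln1, which has no value here.

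HIF is a transcription factor made of an oxygen-labile alpha subunit and a stable beta subunit. The prolyl hydroxylases use oxygen, 2-oxoglutarate and an iron ion held in their active site to mark the alpha subunit, and the von Hippel-Lindau protein then sends it for degradation. When oxygen is short, or when iron is removed by a chelator, the mark fails and HIF builds up, binds DNA with the core letters ACGTG or GCGTG and induces its targets. Liver lobules carry an oxygen gradient from the portal vessels, where it is high, to the central vein.

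Gene expression was measured in livers of male Sprague-Dawley rats, Crl:CD(SD), bought at 5 weeks of age, on one-colour Agilent arrays, 1 array per rat. The vehicle group had 3 rats; their sample characteristics name purified water as the vehicle, whereas the treatment protocol names corn oil. The NTA group had 3 rats given nitrilotriacetic acid trisodium monohydrate, a chelator of metal ions including iron, at 1000 mg/kg/day. The labels give the duration as 28 days in the design and as 9 weeks in the treatment protocol, and neither this nor the vehicle was settled here. The samples were whole liver, so a change in the number of cells of a type and a change in RNA per cell cannot be told apart.

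Each array had 62.4% to 64.5% of its probes well above background, with an upper-quartile processed signal of 464 to 558. The 3 NTA arrays had a slide to themselves, which means that the effects of slide and treatment cannot be told apart. No other array shared the slide or scan day of vehicle replicate 3, which had a median local background of 40, against 54 to 61 on the other arrays. All 8 hepatocyte markers listed, among them Alb, were well above background on all 6 arrays. A level is the log2 of a probe's signal over its array's 75th percentile, and differences are NTA minus vehicle on that log2 scale. Levels of different genes come from different probes and were not compared with each other.

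The DNA just upstream of 4 of these genes is shown here because Adm had the largest difference of the group and Slc2a1, Ankrd37 and Bnip3 hold the most HIF core letters. Each sequence is the 250 bases before the RefSeq gene start in the assembly GRCr8, 5′ to 3′ on the gene's strand, with every ACGTG or GCGTG on either strand in capitals (on the other strand they read CACGT and CACGC). A stretch CACGTG holds ACGTG on both strands, which overlap there and count as 2 matches. The windows lie at chr1:174179950-174180199 on the plus strand for Adm, chr5:138002272-138002521 plus for Slc2a1, chr16:53001257-53001506 plus for Ankrd37 and chr1:203154963-203155212 minus for Bnip3.
Adm: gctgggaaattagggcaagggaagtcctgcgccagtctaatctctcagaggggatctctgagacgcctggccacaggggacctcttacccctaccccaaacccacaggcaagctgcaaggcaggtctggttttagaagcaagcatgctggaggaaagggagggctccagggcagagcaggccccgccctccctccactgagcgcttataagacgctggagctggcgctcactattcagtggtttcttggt
Slc2a1: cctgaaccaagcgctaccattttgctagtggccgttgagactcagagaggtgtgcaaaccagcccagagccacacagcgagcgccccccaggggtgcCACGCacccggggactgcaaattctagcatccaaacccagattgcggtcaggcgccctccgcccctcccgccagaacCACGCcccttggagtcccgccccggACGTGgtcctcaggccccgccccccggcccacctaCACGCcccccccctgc
Ankrd37: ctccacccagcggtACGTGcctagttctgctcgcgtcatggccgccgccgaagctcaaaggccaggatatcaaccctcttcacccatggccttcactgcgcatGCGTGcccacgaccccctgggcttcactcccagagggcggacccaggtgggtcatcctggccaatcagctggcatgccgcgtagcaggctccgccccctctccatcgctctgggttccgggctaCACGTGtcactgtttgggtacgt
Bnip3: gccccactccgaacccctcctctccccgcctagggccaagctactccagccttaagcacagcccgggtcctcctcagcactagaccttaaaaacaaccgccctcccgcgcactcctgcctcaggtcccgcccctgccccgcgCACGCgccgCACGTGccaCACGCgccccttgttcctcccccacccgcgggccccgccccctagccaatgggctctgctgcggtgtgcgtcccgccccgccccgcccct

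The Adm window held 0 matches, while those of Slc2a1, Ankrd37 and Bnip3 held 4 each. Of the 9 genes with a promoter entry, 6 had at least 1 match in a window. Kdm3a and Vegfa had 2 windows each, so by window the count was 6 of 11. Pdk1 had 2, and Egln1 and 1 of the 2 windows of Kdm3a had 1 each. Egln3 and both windows of Vegfa had 0. Over all 33469 promoter windows of that length, 36.7% held ACGTG or GCGTG, 16.6% held ACGTG and 25.9% held GCGTG. These letters describe the windows and were not tested as binding sites.

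The 3 NTA livers were separated from the 3 vehicle livers for 1 of the 9 measured genes: Adm was 1.83-fold higher with NTA, and the other 8 genes overlapped between groups. Adm, the gene of the vasodilator peptide adrenomedullin, was above every vehicle rat in all 3 NTA rats. Its difference did not pass correction over all features tested (limma, Benjamini-Hochberg adjusted p = 0.456). In limma 0 of 9 genes passed at an adjusted p under 0.05, where 0.0297% of all 30353 features did. At an unadjusted p under 0.05 there was 1 of 9, Adm, against 7.57% of all features. The groups did not overlap for 1 of 9 genes, against 13.6% of all features, and for 5.57% of all features the NTA rats lay above.

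The differences of the other 8 genes ran from −0.29 for Egln3 to 0.38 for Ndrg1, and their adjusted p in limma (Benjamini-Hochberg) from 0.709 to 0.992. Over the 9 genes the median difference was 0.02, with 5 above 0 and 4 below, and over all features it was −0.03. The 95% limma intervals of these 8 genes lay inside a 2-fold change in either direction, as did those of 86.9% of all features. The interval of Adm ran from 1.36-fold to 2.47-fold. All 9 genes were well above background on all 6 arrays.

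**Figure D1:**
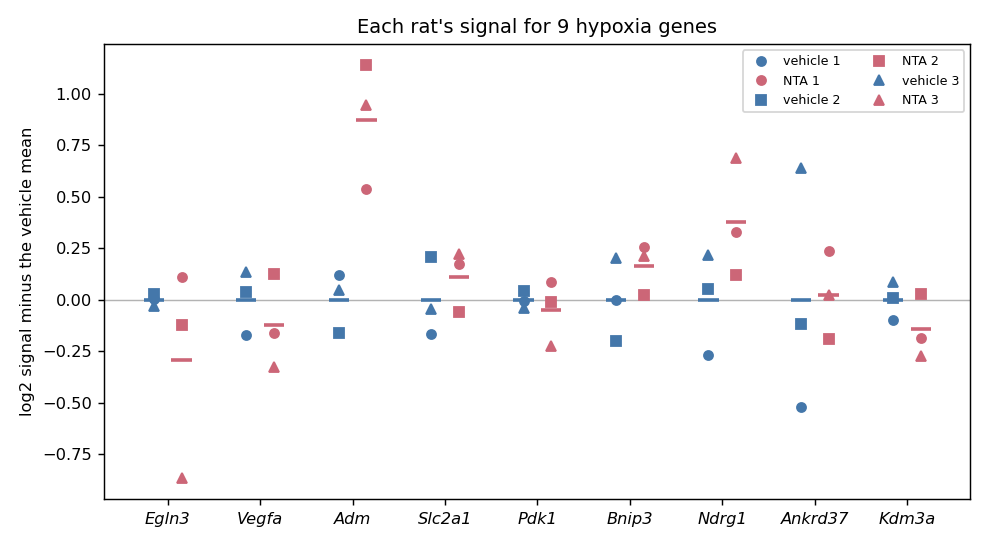
Signal of 9 hypoxia genes in each of 6 rats, as log2 signal minus the mean of the 3 vehicle rats (blue, vehicle; red, NTA; the marker shape gives the replicate number; short bars are group means, n = 3). The 3 NTA rats lie above the 3 vehicle rats for Adm, while the groups overlap for the other 8 genes.

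Of the sensors, Egln3 encodes a prolyl hydroxylase that HIF itself induces. Its level was −1.80, −1.78 and −1.83 in vehicle replicates 1 to 3 and −1.69, −1.93 and −2.67 in NTA replicates 1 to 3. NTA replicate 3 lay far below the other 5 rats, and NTA replicate 1 lay above all vehicle rats. The group means were −1.80 ± 0.03 and −2.10 ± 0.51 (SD, n = 3), a difference of −0.29 (SE 0.25; limma, Benjamini-Hochberg adjusted p = 0.823). Without NTA replicate 3 the difference was −0.006, without NTA replicate 1 it was −0.49, and with normexp background correction it was −0.10. The interval of the fold ran from 0.54 to 1.23.

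Adm encodes adrenomedullin, a secreted peptide that widens vessels and acts on endothelial cells through the receptor Calcrl with Ramp2 or Ramp3. Its level was 0.67, 0.39 and 0.60 in vehicle replicates 1 to 3 and 1.09, 1.69 and 1.497 in NTA replicates 1 to 3. The lowest NTA rat lay 0.42 above the highest vehicle rat. The group means were 0.55 ± 0.15 and 1.43 ± 0.31 (SD, n = 3), a difference of 0.87 (SE 0.18; limma unadjusted p = 0.00216, Benjamini-Hochberg adjusted p = 0.456). By unadjusted p Adm ranked 144 of 30353 features and 52 among the named genes, and 1.13% of all features had a difference at least as high. A two-sided exact permutation test gave 0.1, the smallest p that 3 rats against 3 can reach. Only 1 probe was matched to Adm, so no other probe could be compared.

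Some of the 17 alternatives run left every difference as reported, as set out at the end. Under all 17 the difference of Adm stayed between 0.74, without NTA replicate 2, and 1.04, without NTA replicate 1. Its limma Benjamini-Hochberg adjusted p ran from 0.320 with normexp background correction to 0.70 without NTA replicate 2, and its unadjusted p was below 0.05 in all 17. On the 5 arrays of the larger scan day alone, which leaves out vehicle replicate 3, the difference was 0.90.

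Vegfa, the growth factor that drives new vessels, was measured by 6 probes, matched to 2 RefSeq transcripts. The brightest probe gave 4.66, 4.87 and 4.97 with vehicle and 4.67, 4.96 and 4.51 with NTA. The groups overlapped, with NTA replicate 3 the lowest rat. The difference was −0.12 (SE 0.15; limma, Benjamini-Hochberg adjusted p = 0.884). It turned to 0.035 with normexp background correction, and was −0.02 without NTA replicate 3 and −0.24 without NTA replicate 2. The 6 probes gave differences from −0.16 to 0.03. In the fit over all 38168 probes their adjusted p lay between 0.827 and 0.990.

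Slc2a1 encodes the glucose transporter GLUT1. Its level was −0.005, 0.37 and 0.12 with vehicle and 0.33, 0.10 and 0.38 with NTA. Vehicle replicate 2 lay between the 2 highest NTA rats, so the groups overlapped. The difference was 0.11 (SE 0.14; limma, Benjamini-Hochberg adjusted p = 0.883), 0.03 without vehicle replicate 1, 0.22 without vehicle replicate 2 and 0.20 with normexp background correction. Pdk1, the kinase that switches off pyruvate dehydrogenase and so keeps pyruvate out of the mitochondrial citrate cycle, was at 0.17, 0.22 and 0.14 with vehicle and 0.26, 0.16 and −0.05 with NTA. NTA rats held both its highest and its lowest value. The difference was −0.05 (SE 0.12; limma, Benjamini-Hochberg adjusted p = 0.945); it changed sign without NTA replicate 3 (0.04) and with normexp background correction (0.02).

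Bnip3 encodes an outer mitochondrial membrane protein that marks mitochondria for autophagy. Its brighter probe gave 4.93, 4.72 and 5.13 with vehicle and 5.18, 4.95 and 5.14 with NTA. Vehicle replicates 1 and 2 lay below all NTA rats. Vehicle replicate 3, the array scanned on another day and slide, lay above NTA replicate 2, so the groups overlapped. The difference was 0.16 (SE 0.14; limma, Benjamini-Hochberg adjusted p = 0.827). The dimmer probe gave 0.15. The difference was 0.06 without vehicle replicate 2, 0.26 without vehicle replicate 3 and 0.10 with normexp background correction.

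Ndrg1, a cytoplasmic stress-response protein widely used as a hypoxia marker, had the second largest difference. Its level was −2.52, −2.19 and −2.03 with vehicle and −1.92, −2.13 and −1.56 with NTA. NTA replicate 2 fell between vehicle replicates, while the other 2 NTA rats lay above all vehicle rats. The difference was 0.38 (SE 0.19; limma unadjusted p = 0.0937, Benjamini-Hochberg adjusted p = 0.709), which is 1.30-fold with an interval from 0.94 to 1.79. It was 0.22 without NTA replicate 3 or with normexp background correction and 0.24 without vehicle replicate 1. The second Ndrg1 probe was well above background on 1 of 6 arrays and was not tested.

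Ankrd37, a small ankyrin-repeat protein whose promoter letters are shown above, was the most variable of the genes among vehicle rats. Its level was −0.46, −0.06 and 0.69 with vehicle and 0.29, −0.14 and 0.08 with NTA, so all 3 NTA rats lay within the vehicle range. The vehicle SD was 0.59 and the NTA SD 0.21 (n = 3). The difference was 0.02 (SE 0.30; limma, Benjamini-Hochberg adjusted p = 0.992). It was −0.24, −0.04 and 0.34 without vehicle replicates 1, 2 and 3, and −0.08 without NTA replicate 1 and 0.13 without NTA replicate 2. Vehicle replicate 3, the highest, was the array scanned on another day and slide.

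Kdm3a encodes a histone H3 lysine demethylase that, like the prolyl hydroxylases, needs iron and 2-oxoglutarate. Its brighter probe gave 1.97, 2.07 and 2.15 with vehicle and 1.88, 2.09 and 1.79 with NTA, and NTA replicate 2 lay among the vehicle rats. The difference was −0.14 (SE 0.12; limma, Benjamini-Hochberg adjusted p = 0.823), and the other probe gave 0.08. The mean of both probes gave −0.03, normexp background correction −0.29 (adjusted p = 0.440), and leaving out NTA replicate 2 or 3 gave −0.23 or −0.08.

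**Figure D2:**
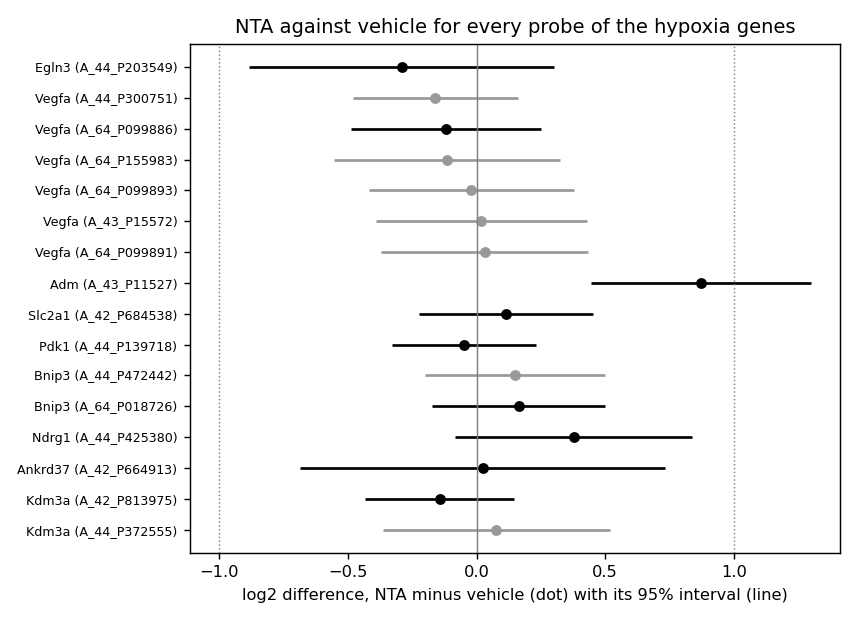
Log2 difference between NTA and vehicle for each of the 16 probes that passed the filter on dim signal (dot), with its 95% interval from limma (line); black marks the probe used for the gene, grey the other probes, and dotted lines a 2-fold change. Adm is the one probe whose interval does not reach 0, and it extends past 2-fold.

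In the fit over all probes, 16 of the 17 matched probes passed the filter on dim signal. At an adjusted p under 0.05 limma called 0 of them, against 0.0341% of all probes tested, and at an unadjusted p under 0.05 it found 1, against 7.38%.

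Related genes were read from 9 lists, called pathway lists here, holding 183 genes, of which 149 were tested. Beside lists around HIF they include paralogs of the 10 genes and pericentral and periportal genes. In limma 0 passed at an adjusted p under 0.05, with a smallest adjusted p of 0.479. At an unadjusted p under 0.05 there were 16 of 149, against 7.57% of all features, 10 of them higher and 6 lower with NTA. Of the 16, the paralogs gave 1 lower, the pericentral genes 2 higher and the periportal genes 2 lower. Over all features 3.66% were higher and 3.91% lower by that measure.

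Among HIF subunits and the proteins that control them, 14 of 18 genes were tested, with a median difference of −0.04. By unadjusted p under 0.05, 0 were higher and 1 was lower. That gene was Siah2, a ubiquitin ligase that targets prolyl hydroxylases, at −1.46, −1.60 and −1.56 with vehicle and −2.06, −1.94 and −1.84 with NTA. Its groups did not overlap, and the difference was −0.41 (SE 0.11; limma, Benjamini-Hochberg adjusted p = 0.516), or −0.23 with normexp background correction. Cited2, an inhibitor of HIF that HIF induces, differed by 0.31 (SE 0.19; adjusted p = 0.751). That of Cited2 was 0.15 without vehicle replicate 1, and its 3 probes ran from 0.005 to 0.31 with a mean of 0.18. Named for their roles after their values were seen, the HIF alpha subunits Hif1a and Epas1 differed by 0.03 and 0.13, the beta subunit Arnt by 0.20, the hydroxylase Egln2 by −0.08 and Vhl by 0.08. With 1 array left out, Hif1a ran from −0.09 to 0.20, Epas1 from −0.02 to 0.22, Arnt from 0.07 to 0.33, Egln2 from −0.11 to −0.03 and Vhl from 0.003 to 0.19. The 3 Vhl probes ran from −0.09 to 0.18, and with normexp background correction Arnt was at −0.04.

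Of receptors for vessel signals and other such signals, 16 of 21 genes were tested. Their median difference was 0.07, with 14 above 0 and 2 below. Of these, at an unadjusted p under 0.05, 3 were higher and 0 lower, and the groups did not overlap for those 3. Ramp2, the partner that makes Calcrl an adrenomedullin receptor, was at −0.76, −1.01 and −0.85 with vehicle and −0.26, −0.57 and −0.18 with NTA. Its difference was 0.54 (SE 0.14; limma, Benjamini-Hochberg adjusted p = 0.516), 0.33 with normexp background correction, and 0.56 at its other probe. Calcrl itself differed by 0.12 (SE 0.23), with −3.04, −2.67 and −2.30 in vehicle rats and −2.40, −2.39 and −2.86 in NTA rats. The Calcrl groups overlapped, its difference was −0.05 with normexp background correction and reached −0.07 with 1 array left out, and it was named after its values were seen. Tie1, an endothelial receptor kinase, differed by 0.63 (SE 0.14; limma, Benjamini-Hochberg adjusted p = 0.479). Flt4, a receptor for Vegfc, differed by 0.29, and its probes ranged from 0.28 to 0.56. The Vegfa receptors Kdr and Flt1 differed by 0.22 and 0.05, and with normexp background correction they were at 0.12 and −0.02. With 1 array left out Flt1 ran from −0.21 to 0.22. Flt4, Kdr and Flt1 were named after their values were seen.

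Endothelial marker levels are given here beside those of Adm, Ramp2, Tie1 and Flt4. Of the 10 endothelial markers listed, 5 were tested, all 5 above 0 with a median of 0.36, and no probe was matched to Stab1, Stab2, Clec4g, Egfl7 or Vwf. In limma 0 of the 5 passed, with a smallest Benjamini-Hochberg adjusted p of 0.482. Their summed relative signal was 9.27 to 10.3 in vehicle rats and 12.3 to 14.0 in NTA rats. Here and below a sum adds signals that are not log transformed, so the brightest probes of a list weigh most in it. Lyve1, Emcn and Pecam1 were higher in each NTA rat than in any vehicle rat, with differences of 0.54, 0.78 and 0.36, a separation that 5.57% of all features had. Cdh5 and Erg differed by 0.007 and 0.19 and overlapped; with 1 array left out Cdh5 ran from −0.11 to 0.09, and Erg was at 0.075 without vehicle replicate 3. The other Pecam1 probe gave 0.06, and Lyve1 was at 0.32 with normexp background correction. The part of these cells in the Adm difference was not tested.

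Of 10 erythroid markers listed, 8 were tested and 0 passed in limma, with a smallest Benjamini-Hochberg adjusted p of 0.262. Their median difference was 0.54, and the NTA rats lay above all vehicle rats for 4 of them, Rhd, Alas2, Hba-a1 and Hbb. The groups overlapped for the other 4, of which Klf1 and Epb42 were well above background on 5 and 4 of 6 arrays. Epb42 differed by 0.54, or −0.03 with normexp background correction, and Klf1 by −0.02. The summed relative signal of the 8, which came mostly from Hba-a1 and Hbb, was 578 to 640 with vehicle and 710 to 1120 with NTA. In NTA replicates 1 to 3 the erythroid sum was 860, 1120 and 710, and the Adm level 1.09, 1.69 and 1.497. NTA replicate 2 was highest in both, while the lowest NTA rat was replicate 3 for the sum and replicate 1 for Adm. Vehicle replicates 1 to 3 had sums of 640, 578 and 630 and Adm levels of 0.67, 0.39 and 0.60. The order of the vehicle rats was thus the same in both. Gata1 was not well above background on any array. All 10 Kupffer cell markers were above 0 with a median of 0.35, 0 passed (smallest adjusted p 0.621 in limma, Benjamini-Hochberg), and the groups were separated for 1, Marco, at 1.27. Their summed signal was 117 to 265 with vehicle and 176 to 350 with NTA, and the 117 was that of vehicle replicate 3. Without that rat the Kupffer marker differences ran from −0.07 for C1qb to 0.81 for Marco. Clec4f and Csf1r were then at 0.009 and 0.005, and Adgre1 at −0.05. All 5 lymphocyte markers tested were above 0 with a median of 0.29, and 0 passed. Their sums were 2.47 to 3.61 and 3.17 to 5.07. All 8 hepatocyte markers were below 0 with a median of −0.15, 0 passed, and their sums were 6400 to 6800 with vehicle and 5570 to 6000 with NTA. With quantile normalization the 8 ran from −0.34 for Apoa1 to −0.03 for Serpina1. With normexp background correction they ran from −0.28 for Apoa1 to −0.05 for Alb and Ttr. Apob was at 0.02 without vehicle replicate 3. Of 9 stellate cell and fibroblast markers 3 were above 0, with a median of −0.12 and sums of 38.3 to 42.1 and 33.2 to 53.7. Of 5 biliary markers 4 were above 0, with a median of 0.13 and sums of 1.14 to 1.90 and 1.37 to 1.74. In both of these lists 0 passed and the groups overlapped for every gene tested. The part of these lists in the Adm difference was not tested.

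Of 18 glycolytic HIF targets, 16 were tested, with a median difference of −0.02. Here, at an unadjusted p under 0.05, 3 were higher and 1 was lower. Hk1, a hexokinase that is low in hepatocytes, was at −1.05, −0.88 and −0.85 with vehicle and −0.64, −0.45 and −0.54 with NTA, without overlap. Its difference was 0.38 (SE 0.11; limma, Benjamini-Hochberg adjusted p = 0.531). Pkm, the pyruvate kinase of most tissues other than liver, differed by 0.63 (SE 0.19; adjusted p = 0.541). Named after their values were seen, the lactate exporter Slc16a3 differed by 0.67 (0.38 with normexp background correction, 0.41 without NTA replicate 3) and Pfkfb3, which makes an activator of glycolysis, by −0.38 (−0.26 with normexp). The classical HIF targets Ldha and Pgk1 differed by −0.28 (−0.18 without vehicle replicate 3) and −0.16 and were likewise chosen once their values were known.

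Among 32 other HIF targets, 24 were tested, with a median of −0.03. Among them, at an unadjusted p under 0.05, 1 was higher and 1 was lower. Loxl2, a collagen cross-linking enzyme, differed by 0.34 (SE 0.10; limma, Benjamini-Hochberg adjusted p = 0.541), and Plin2, a lipid droplet coat protein, by −0.27 (SE 0.11; adjusted p = 0.635). Car9, a carbonic anhydrase strongly induced by HIF and named after its values were seen, was at −2.74, −2.67 and −2.65 with vehicle and −3.00, −2.64 and −2.88 with NTA. The Car9 groups overlapped, with a difference of −0.16 (SE 0.12), which ran from −0.25 without NTA replicate 2 to −0.08 without NTA replicate 1.

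Other enzymes that need iron and 2-oxoglutarate numbered 42, of which 29 were tested, with a median difference of 0.006 and 15 above 0. At an unadjusted p under 0.05, 1 was higher and 0 were lower. P3h2, a collagen prolyl hydroxylase, was at −3.07, −3.83 and −3.56 with vehicle and −2.94, −3.15 and −2.66 with NTA. Its difference was 0.57 (SE 0.23; limma, Benjamini-Hochberg adjusted p = 0.638), or 0.09 with normexp background correction. Phyh, the peroxisomal phytanoyl-CoA hydroxylase, differed by −0.35 (SE 0.19; adjusted p = 0.735), or −0.16 without NTA replicate 2.

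Of 11 genes of pyruvate dehydrogenase, its kinases and phosphatases, 10 were tested and 0 reached an unadjusted p under 0.05 in limma, with a median of 0.01. The subunit Dld differed by −0.34 (SE 0.15; Benjamini-Hochberg adjusted p = 0.671), −0.23 without NTA replicate 3, and the phosphatase regulator Pdpr by 0.13 (SE 0.10), −0.03 with normexp background correction. Pdk2, Pdk3 and Pdk4, the other kinases of the Pdk1 family, were named after their values were seen and differed by 0.01, 0.13 and 0.04; with normexp background correction they turned to −0.03, −0.09 and −0.08. With 1 array left out they ran from −0.08 to 0.10, from 0.05 to 0.28 and from −0.27 to 0.36.

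Paralogs of the 10 genes numbered 13, of which 12 were tested, with a median of 0.02. At an unadjusted p under 0.05, 0 were higher and 1 was lower, Ankrd2 at −0.45 (SE 0.15; limma, Benjamini-Hochberg adjusted p = 0.580; −0.17 with normexp background correction). The urate and sugar transporter Slc2a9 differed by 0.27 (SE 0.16; adjusted p = 0.748), or 0.15 when vehicle replicate 2 was left out and 0.44 when vehicle replicate 1 was. Slc2a2, the main hepatocyte glucose transporter, and Ndrg2 were named after their values were seen and differed by −0.02 and −0.04. Ndrg2 turned to 0.08 with normexp background correction, and Slc2a2 to 0.03 with quantile normalization. With 1 array left out Ndrg2 ran from −0.17 to 0.12 and Slc2a2 from −0.20 to 0.09.

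Genes of the oxygen-poor pericentral zone and the oxygen-rich periportal zone were set beside the hypoxia genes. All 14 pericentral genes were tested, with a median of 0.10 and 8 above 0, and at an unadjusted p under 0.05 limma had 2 higher and 0 lower. Rhbg, an ammonia transporter, differed by 0.87 (SE 0.28; Benjamini-Hochberg adjusted p = 0.561), and Nr1i3, the nuclear receptor CAR, by 0.76 (SE 0.28; adjusted p = 0.621). All 14 periportal genes were tested, with a median of −0.16 and 3 above 0, and 0 were higher and 2 lower. Hsd17b13, a lipid droplet enzyme, differed by −0.39 (SE 0.16; adjusted p = 0.655), or −0.24 without NTA replicate 3, and Apoc2, a lipase activator, by −0.25 (SE 0.10; adjusted p = 0.655). The summed relative signal overlapped between groups for both lists, at 566 to 622 with vehicle and 585 to 713 with NTA for the pericentral genes and 1830 to 2230 and 1600 to 2000 for the periportal ones. The median of the hepatocyte markers was −0.15.

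**Figure D3:**
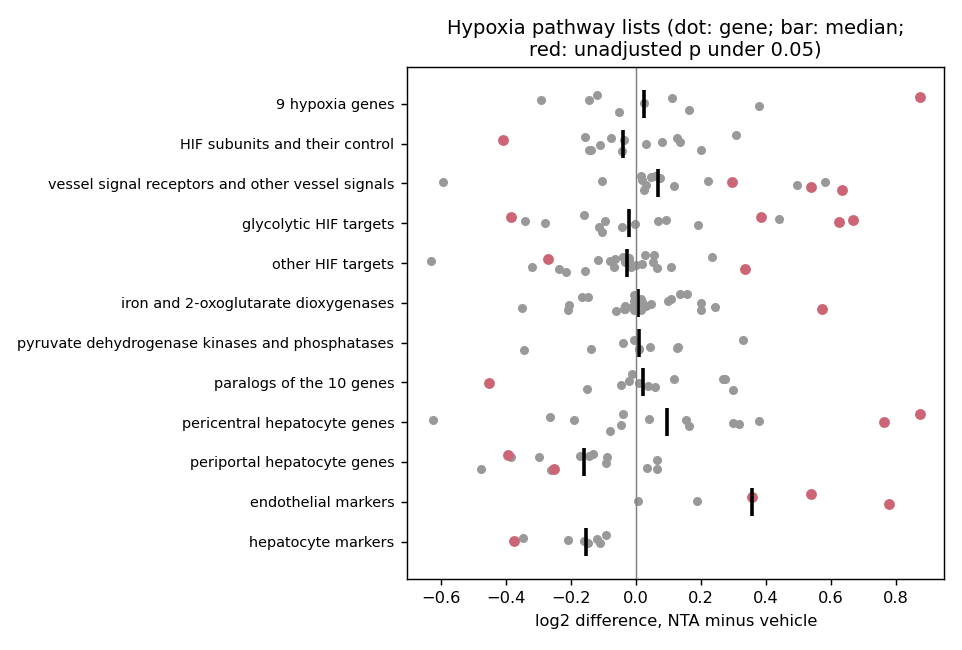
Log2 difference between NTA and vehicle for each tested gene (dot) of the hypoxia genes, 9 pathway lists and 2 marker lists, with each list's median (black bar); red dots have an unadjusted limma p under 0.05. The medians of the 9 pathway lists lie between −0.16 and 0.10, and Adm is the rightmost of the 9 hypoxia genes.

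Across the 6 rats the profile closest to that of Adm, each centred on its own mean, belonged to Nherf4, a PDZ scaffold protein, with a mean absolute difference of 0.07 log2 units. Nkx2-1 and Kifc1, a homeobox factor and a mitotic kinesin, followed at 0.09 and 0.10. They differed between groups by 0.74, 0.89 and 0.90 (limma, Benjamini-Hochberg adjusted p = 0.506, 0.488 and 0.482). These were the nearest of the named genes above background on every array, with provisional LOC and RGD number symbols left out. With 6 rats near matches are easily found.

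**Figure D4:**
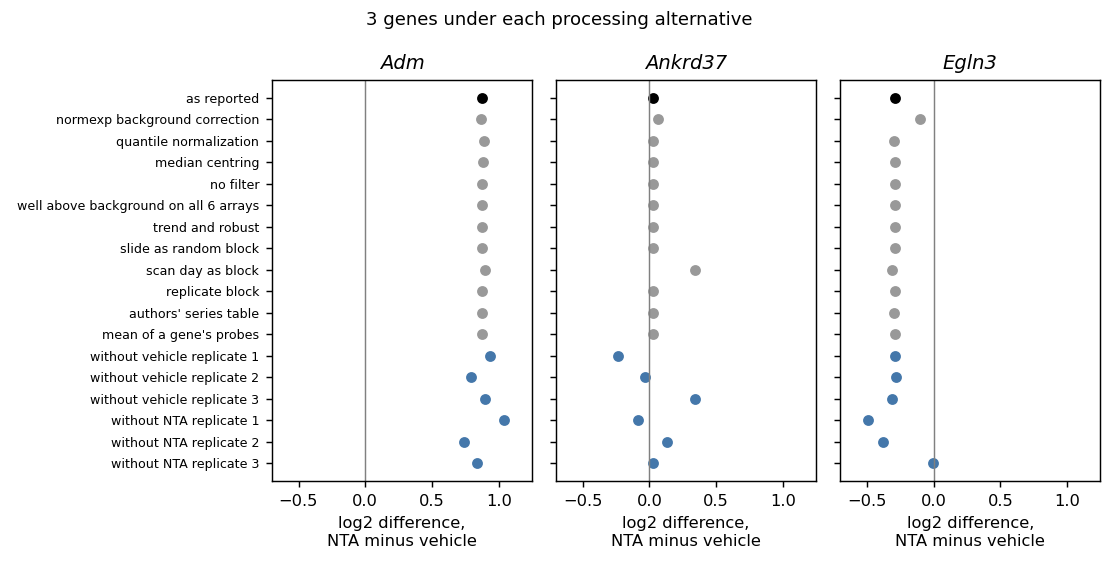
Log2 difference between NTA and vehicle for Adm, Ankrd37 and Egln3 as reported (black), under 11 other processing settings (grey) and with each array left out (blue). Adm stays between 0.74 and 1.04, Ankrd37 runs from −0.24 to 0.34 across 0, and Egln3 comes to −0.006 without NTA replicate 3.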

How the data were processed

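Per the file headers, arrays of design 035170 (build rn4) were quantified with Agilent Feature Extraction 10.7.1.1; the submitters' processing notes give 10.7. The deposited scanner files hold background-subtracted intensity per spot on a linear scale. The authors' deposited series table holds a ratio, that intensity over the array's 75th percentile (100% of probes matched within rounding), so it is no independent check.

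Each processed signal was divided by its array's 75th percentile over non-control probes, then log2 transformed. Spots flagged as non-uniform were left out. A probe was kept if well above background on all 3 arrays of a group. Probes were named through RefSeq accessions (GRCr8); a gene took its brightest probe, giving 11251 genes and 19102 unnamed probes. The array design uses another build, so no probe coordinates are given.

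NTA was compared with vehicle by lmFit and eBayes in limma 3.58.1 (R 4.3.3), two-sided, Benjamini-Hochberg adjusted over all features, threshold 0.05. The script was also run on simulated data. The members, lists and tests were chosen with earlier results of these data known. Besides the 10 genes, the 2 genes of each list with the smallest p and the 3 profiles nearest to the gene with the smallest p are named. Of 257 listed symbols, 226 had a probe. Normexp used the median spot signal in place of the planned mean. The protocol speaks of 3 animals a group, so each array was taken as 1 rat.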

Additional observations from a re-analysis of the deposited data

How the results depend on the processing

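No hypoxia gene or pathway gene passed under any of the 17 alternatives run, which were 6 that left out 1 array and 11 others. No hypoxia gene probe passed either, where the mean of a gene's probes was not run. The scan day block is the same fit as leaving out vehicle replicate 3, the only array of its day, and adds no separate check. Of 153 values of the 9 genes under them, 6 changed sign. With normexp background correction Vegfa came to 0.035 and Pdk1 to 0.016. With 1 array left out, Pdk1 ran from −0.119 to 0.038 and Ankrd37 from −0.236 to 0.343; the cause was not tested. Adm, Egln3, Slc2a1, Bnip3, Ndrg1 and Kdm3a kept their sign in all 17. Some of the 17 are no check on a sign. The changed filters, trend and robust moderation and the replicate block gave the reported differences again, 0.873 for Adm. So did the mean of a gene's probes where a gene had 1 tested probe. At an unadjusted p under 0.05 Kdm3a joined Adm with normexp, and Ndrg1 did without NTA replicate 2.

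Over all features limma called 9. Leaving out 1 array gave 1 to 8 calls, with 1 without NTA replicate 2 and 4 without NTA replicate 1. The replicate block, with the labels' replicate number as a block, gave 0 calls, and its adjusted p for Adm was 0.595. Deviations from the group means of same-numbered rats correlated across features at 0.17, −0.01 and −0.07, and those of the other pairs at −0.15 to 0.15. With 3 rats a group these values cannot settle whether the numbers pair the rats. With slide as a random block 9 features passed. The correlation within slides was −0.01, so that fit nearly repeats the one reported, and it cannot separate slide from treatment. With trend and robust moderation 12 features passed. The number of arrays limits the precision, and each gene rests on few probes, Adm on 1.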
